A study of Mus musculus with 12 samples.

Results

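The genes described here make, bind and cut hyaluronan in the matrix of the ovarian follicle: the synthases Has1, Has2 and Has3, the hyaluronidases Hyal1 and Hyal2, the matrix linkers Tnfaip6, Ptx3 and Vcan, and the receptors Cd44 and Lyve1. A probe set was taken if the array's annotation table gave it a single gene symbol and that symbol was one of these 10. The rule took 22 of 45037 non-control probe sets, and 9 of the 10 genes. Has1, Has3, Hyal2 and Tnfaip6 had 1 probe set each, Has2, Ptx3 and Lyve1 had 2 each, Cd44 had 4 and Vcan had 8. Hyal1 was named only by 2 probe sets that also name Naa80, so no value is given for it.

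Granulosa cells, the cells that line the follicle, were released by puncturing the antral follicles of 21-day-old mice, and their RNA was hybridised to 12 single-colour Affymetrix mouse arrays, 3 for each of 4 groups. The groups were Inha-/- mice given 5 IU of PMSG and then 5 IU of hCG for 6 h, wild-type mice given both, Inha-/- mice given PMSG alone, and wild-type mice given PMSG alone. PMSG, a hormone with follicle-stimulating activity, was given to every group for 44 to 46 h, so no group was untreated, and hCG acts at the receptor of luteinising hormone, the ovulatory signal. All mice were of the labelled strain C57BL/6J;129S5/SvEvBrd. Inha encodes the alpha subunit of the inhibins, which antagonise activins. The labels name no Cre or promoter for the loss of Inha, and mice that lack it are known to develop gonadal tumours. The labels call the 3 samples of a group independent and do not say whether mice were pooled, so p-values measure the spread between these samples.

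Hyaluronan is a long polymer of glucuronic acid and N-acetylglucosamine that synthases in the plasma membrane extrude into the space between cells. After the ovulatory signal in the mouse, cumulus and granulosa cells make Has2, and the polymer swells the cumulus around the oocyte. Tnfaip6 (TSG-6) moves the heavy chains of inter-alpha-inhibitor onto hyaluronan, and Ptx3 binds those chains. Mice that lack either protein form an unstable cumulus matrix. Vcan (versican) binds hyaluronan and is cut by ADAMTS proteases, Cd44 is the widely expressed hyaluronan receptor, and Lyve1 is the receptor best known from lymphatic endothelium. Hyal2 is a membrane-anchored hyaluronidase.

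Promoters are printed for the 3 members below, which have a promoter sequence and were raised by hCG in Inha-/- cells. RefSeq (build GRCm38.p6) gave a promoter, 250 bases before to 50 after the annotated start, for 7 of the 10 members, while Has2, Has3 and Lyve1 are only named. Capitals mark every match to the motifs searched, on either strand.
Has1 (chr17:17855139-17855438, minus strand): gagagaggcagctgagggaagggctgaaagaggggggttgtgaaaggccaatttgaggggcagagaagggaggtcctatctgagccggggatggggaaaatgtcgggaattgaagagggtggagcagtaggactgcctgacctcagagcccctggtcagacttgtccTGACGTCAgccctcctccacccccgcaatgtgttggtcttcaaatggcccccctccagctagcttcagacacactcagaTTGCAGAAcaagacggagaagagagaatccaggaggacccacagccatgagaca
Tnfaip6 (chr2:52037863-52038162, plus strand): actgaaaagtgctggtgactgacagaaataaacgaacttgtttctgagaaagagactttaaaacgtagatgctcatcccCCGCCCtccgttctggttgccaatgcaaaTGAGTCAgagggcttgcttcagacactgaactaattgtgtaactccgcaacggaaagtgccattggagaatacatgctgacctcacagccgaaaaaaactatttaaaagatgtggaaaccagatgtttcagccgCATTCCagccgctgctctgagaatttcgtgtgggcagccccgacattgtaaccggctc
Ptx3 (chr3:66219637-66219936, plus strand): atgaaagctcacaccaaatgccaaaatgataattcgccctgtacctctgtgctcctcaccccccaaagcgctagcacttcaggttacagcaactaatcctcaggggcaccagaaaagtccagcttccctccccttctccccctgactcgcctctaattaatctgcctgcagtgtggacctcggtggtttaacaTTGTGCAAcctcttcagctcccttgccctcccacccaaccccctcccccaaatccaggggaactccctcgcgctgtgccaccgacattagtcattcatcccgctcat
The Has1 promoter held the cAMP response element TGACGTCA, 83 to 76 bases before the start, with its short form TGACG inside it on each strand. The full element was present in 1.79% of the 32851 promoters of the same length and the short form in 20.8%. A C/EBP match (TTGCNNAA), found in 10.8% of promoters, began 4 bases before the Has1 start and ran across it. The Tnfaip6 promoter held an AP-1 match (TGANTCA), found in 7.81% of promoters, 142 to 136 bases before the start. It also held a GC box (GGGCGG, in 35.7% of promoters) 171 to 166 bases before the start and a TEAD match (GGAATG, in 14.7%) 8 to 3 bases before it, both on the opposite strand. The Ptx3 promoter held a C/EBP match 57 to 50 bases before the start, on the opposite strand. Among the other members, Vcan held 2 GC boxes, Cd44 held 1, Hyal2 held a TEAD match and a GC box, and Hyal1 held 2 RUNX matches (TGTGGT, in 16.8% of promoters) and 2 GC boxes that share a base. The E-box CACGTG (7.15%), the SMAD palindrome GTCTAGAC (0.213%) and TATAAA (13.6%) were searched too and matched no member in this window. A match describes letters only.

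Values were log2 and were centred on each probe set's median over the 12 arrays. They show differences between arrays, not levels. Genes cannot be ranked by abundance and it is not known which were above background. Inha itself lay between -7.4 and -5.395 on the 6 Inha-/- arrays and between 5.395 and 5.874 on the 6 wild-type arrays, as labelled. Differences were tested with limma over all 45037 probe sets, with Benjamini-Hochberg adjustment in each comparison, and an adjusted p under 0.05 made a call. The spread of a probe set was estimated once from all 12 arrays. The SE, interval and p of a comparison therefore also draw on the groups that are not compared. The number of arrays, 3 in a group, limits the precision. Arrays of one group correlated at 0.225 to 0.819 across probe sets. The lowest values were those of the Inha-/- arrays after PMSG, 0.225 to 0.3305. The Inha-/- array 1 after hCG stood apart from its group at several members, so the values that it moves most are also given without it. Where a gene has several probe sets, the one with the largest SD over the 12 arrays is given first.

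After hCG, 5 of the 22 probe sets were higher in Inha-/- than in wild-type cells (Has1, both of Has2, Tnfaip6 and Hyal2) and 5 were lower (both of Lyve1 and 3 of Vcan). Over all probe sets 5.13% were higher and 4.95% were lower in this comparison. The median difference was -0.16 over the 22 probe sets and -0.0016 over all. In 13 of the 22 the arrays of the groups did not overlap, against 23.6% of all probe sets. Wild-type arrays 2 and 3 after hCG share a number in their array names, and no other arrays of the same group do. After PMSG, Inha-/- and wild-type array 1 share such a number, as do Inha-/- and wild-type array 2. The consensus correlation within a shared number was 0.62. The main fit treats all arrays as independent, so n = 3 counts arrays. With the repeated number in the array names as a random block, 5 of the 22 were called, 2 higher and 3 lower. That fit called 2136 of the 45037 probe sets. After PMSG alone none of the 22 was called by limma in either direction, where 1.04% of all probe sets were higher and 1.22% lower. There 2 had an unadjusted p under 0.05, and 5 did not overlap between groups, against 15.9%. The median there was 0.05 over the 22 and 0.04 over all.

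hCG raised 5 probe sets of 4 genes in Inha-/- cells (Has1, both of Has2, Tnfaip6 and Ptx3), against 0.93% of all probe sets. In wild-type cells it raised 13 probe sets of 6 genes (Has2, Tnfaip6, Ptx3, Vcan, Cd44 and Lyve1), against 5.1% of all. None was called lower in Inha-/- cells, against 0.0799% of all, and none in wild-type cells, against 4.66%. The median response of the 22 was 1.04 in Inha-/- cells, with -0.04 over all probe sets, and 2.49 in wild-type cells, with 0.01 over all. Arrays after hCG and after PMSG did not overlap for 12 probe sets in Inha-/- cells, against 9.22% of all, and for 16 in wild-type cells, against 25.1%. The responses share no arrays with each other, but each shares its hCG arrays with the comparison of genotypes after hCG. The test of the difference between the responses called Has1, larger in Inha-/- cells, and 1 Lyve1 probe set, larger in wild-type cells. Over all probe sets 0.147% were called larger and 0.613% smaller in Inha-/- cells.

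**Figure D1:**
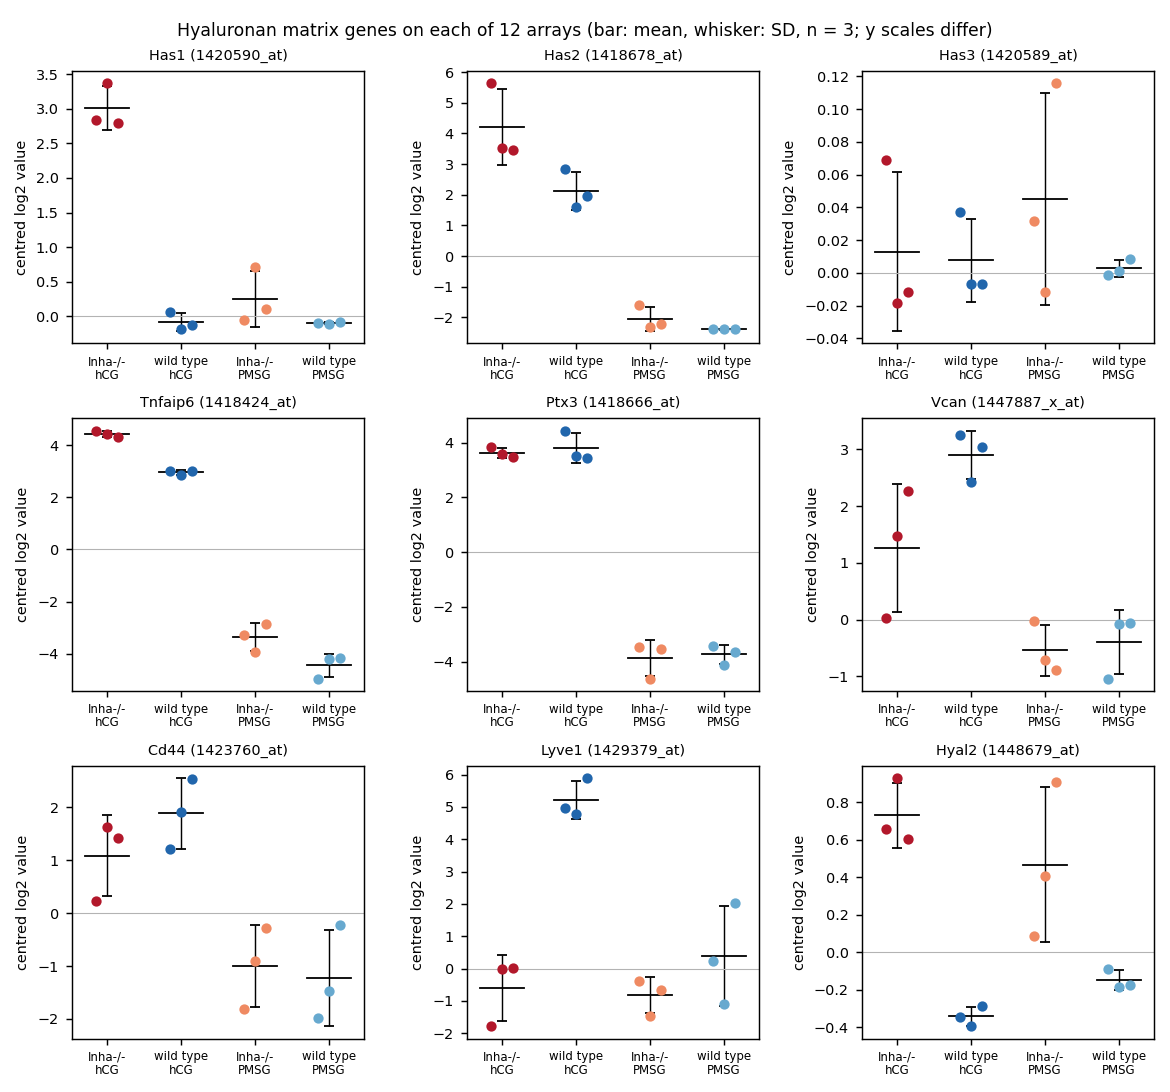
Centred log2 value of the 9 genes, by the probe set of largest SD, on each array (points), with the mean (bar) and SD (whisker, n = 3) of each group. Has1 is high on the Inha-/- arrays after hCG (2.80 to 3.37) and Lyve1 on the wild-type arrays after hCG (4.78 to 5.89), while Tnfaip6 and Ptx3 are high after hCG in both genotypes.

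Has1, one of the 3 synthases, rose with hCG in Inha-/- cells and was not called for hCG in wild-type cells. Its values were 2.84, 3.37 and 2.80 on the Inha-/- arrays after hCG and 0.06, -0.19 and -0.12 on the wild-type arrays after hCG. After PMSG they were -0.06, 0.71 and 0.11 on the Inha-/- arrays and -0.09, -0.11 and -0.08 on the wild-type arrays. The 3 Inha-/- arrays after hCG were the highest of all 12, and the other 9 lay close together apart from 1 Inha-/- array after PMSG. After hCG, Has1 was 8.52-fold higher in Inha-/- than in wild-type cells (log2 3.09 ± 0.20 SE, n = 3 each, limma adjusted p = 7.043e-05). hCG raised it 6.74-fold in Inha-/- cells (log2 2.75, limma adjusted p = 0.0001907). In wild-type cells the difference was 0.01 on the log2 scale (95% confidence interval -0.45 to 0.47, limma adjusted p = 1). The responses differed by 2.74 ± 0.29 (SE; limma adjusted p = 0.003817). After PMSG alone the difference between genotypes was 0.35 on the log2 scale, not called (limma adjusted p = 0.6022), although the arrays did not overlap.

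Has2, the main synthase of the expanding cumulus, rose with hCG in both genotypes and was higher in Inha-/- than in wild-type cells after hCG. On the first probe set (1418678_at) it had 5.65, 3.53 and 3.47 on the Inha-/- arrays after hCG and 2.83, 1.61 and 1.95 on the wild-type arrays after hCG. After PMSG, Has2 had -1.61, -2.33 and -2.23 on the Inha-/- arrays and -2.39, -2.40 and -2.38 on the wild-type arrays. All arrays after hCG lay above all arrays after PMSG, and the Inha-/- arrays after hCG lay above the wild-type ones, array 1 farthest. hCG raised Has2 77.4-fold in Inha-/- cells (log2 6.27, limma adjusted p = 0.0005073) and 23-fold in wild-type cells (log2 4.52, limma adjusted p = 0.001158). After hCG it was 4.24-fold higher in Inha-/- than in wild-type cells (log2 2.08 ± 0.55 SE, n = 3 each, limma adjusted p = 0.04299). This SE draws on all 4 groups, whose spreads differed on this probe set. The SD was 1.24 on the Inha-/- and 0.63 on the wild-type arrays after hCG, and 0.39 and 0.0068 after PMSG. The second probe set (1449169_at), which followed the first over the 12 arrays (r = 0.979), gave 2.32 with an adjusted p of 0.02379 by limma. Without Inha-/- array 1 after hCG, the Has2 difference was 1.37 (limma adjusted p = 0.04201) on the first probe set and 1.61 (0.01494) on the second, and the Has2 response in Inha-/- cells was 5.56 (0.0001518) and 4.03 (0.0005398). With the repeated number in the array names as a random block neither Has2 probe set was called (1.96, limma adjusted p = 0.1169, and 2.27, 0.06482). The call of the first was lost in 7 of the 12 fits that left out 1 array: without wild-type array 2 (limma adjusted p = 0.1229) or 3 (0.1375) after hCG, Inha-/- array 2 (0.06103) or 3 (0.05983) after PMSG, or any wild-type array after PMSG (0.06104 to 0.06726). The call of the second was lost without wild-type array 2 (limma adjusted p = 0.06756) or 3 (0.07472) after hCG. The responses of Has2 differed by 1.75, not called (95% confidence interval 0.002 to 3.50, limma adjusted p = 0.532). The PMSG difference was 0.33 (limma adjusted p = 0.7467).

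Has3, the third synthase, lay between -0.02 and 0.12 on all 12 arrays. No comparison called it, and its largest difference, between genotypes after PMSG, was 0.04 on the log2 scale (limma adjusted p = 0.7123). Its SD was in the lower 40% of all probe sets, as was that of 1 probe set each of Cd44 and Ptx3 and of 2 of Vcan. For these 5 the range over the 12 arrays was at most 0.27.

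**Figure D2:**
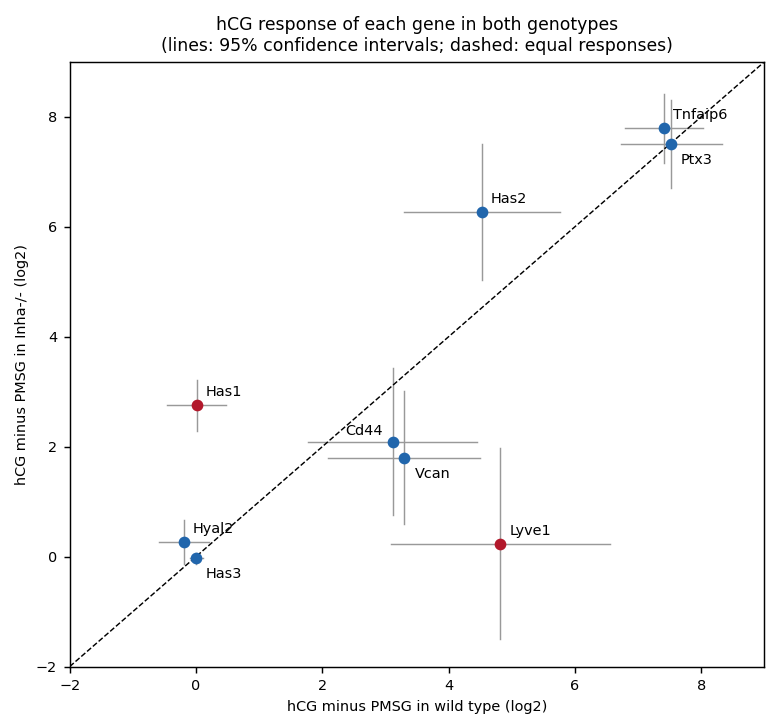
hCG response (hCG minus PMSG, log2) of the 9 genes in Inha-/- cells, on the vertical axis, against that in wild-type cells, with 95% confidence intervals (lines) and a dashed line of equal responses. Has1 (2.75 against 0.01) lies above the dashed line, Lyve1 (0.24 against 4.82) lies below it, and Ptx3 (7.50 against 7.53) lies on it.

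Tnfaip6, which loads heavy chains onto hyaluronan, had one of the largest hCG responses among the members and was higher in Inha-/- than in wild-type cells after hCG. It had 4.56, 4.44 and 4.30 on the Inha-/- arrays after hCG and 3.02, 2.85 and 3.02 on the wild-type arrays after hCG. After PMSG, Tnfaip6 had -3.28, -3.94 and -2.85 on the Inha-/- arrays and -4.95, -4.20 and -4.18 on the wild-type arrays. The 4 groups did not overlap, and the order was Inha-/- above wild type both after hCG and after PMSG. hCG raised Tnfaip6 221.1-fold in Inha-/- cells (log2 7.79, limma adjusted p = 9.062e-07) and 170.0-fold in wild-type cells (log2 7.41, limma adjusted p = 1.035e-06). After hCG it was 2.76-fold higher in Inha-/- cells (log2 1.47 ± 0.28 SE, n = 3 each, limma adjusted p = 0.009695). After PMSG the Tnfaip6 difference was 1.09 ± 0.28 (SE), not called (limma adjusted p = 0.08933). It was called without Inha-/- array 2 after PMSG (1.38, limma adjusted p = 0.03188). With the repeated array name number as a random block the Tnfaip6 difference was 1.46 after hCG, no longer called (limma adjusted p = 0.07502), and 1.02 after PMSG, called (0.04475). The responses differed by 0.38 (95% confidence interval -0.50 to 1.26, limma adjusted p = 0.8451).

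Ptx3, the pentraxin of the cumulus matrix, rose with hCG in both genotypes and was not called between them. On its first probe set (1418666_at) it had 3.82, 3.58 and 3.48 on the Inha-/- arrays after hCG and 4.44, 3.51 and 3.45 on the wild-type arrays after hCG. After PMSG, Ptx3 had -3.47, -4.62 and -3.52 on the Inha-/- arrays and -3.45, -4.11 and -3.63 on the wild-type arrays. The genotypes overlapped after each treatment. hCG raised Ptx3 180.8-fold in Inha-/- cells (log2 7.50, limma adjusted p = 7.847e-06) and 184.4-fold in wild-type cells (log2 7.53, limma adjusted p = 4.507e-06). Between genotypes after hCG the difference was -0.17 (95% confidence interval -0.97 to 0.63, limma adjusted p = 1), and the responses differed by -0.03 (-1.16 to 1.11). The second Ptx3 probe set (1456903_at) did not follow the first over the 12 arrays (r = -0.07) and ranged over 0.27.

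Vcan, the large proteoglycan that binds hyaluronan, rose with hCG in wild-type cells on 5 of its 8 probe sets, by 2.00 to 3.30 on the log2 scale. In Inha-/- cells no Vcan probe set was called, and the same 5 gave differences of 0.59 to 2.05. The smallest limma adjusted p of these was 0.07125, on 1421694_a_at. On each of the 5 the Inha-/- arrays after hCG lay above those after PMSG. Of all probe sets, 9.22% did not overlap there, in either direction. On the probe set of largest SD (1447887_x_at) Vcan had 0.03, 1.47 and 2.27 on the Inha-/- arrays after hCG and 3.25, 2.43 and 3.04 on the wild-type arrays after hCG. After PMSG it had -0.03, -0.70 and -0.88 on the Inha-/- arrays and -1.04, -0.08 and -0.06 on the wild-type arrays. Every wild-type array after hCG lay above every Inha-/- one, and Inha-/- array 1 after hCG was barely above the arrays after PMSG.

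After hCG, 3 Vcan probe sets were lower in Inha-/- than in wild-type cells. 1427256_at had 0.05, 0.43 and 0.49 on the Inha-/- arrays after hCG and 1.81, 1.61 and 1.83 on the wild-type arrays after hCG. On this Vcan probe set the difference was -1.43 ± 0.18 (SE, n = 3 each, limma adjusted p = 0.001344), with -1.29 (limma adjusted p = 0.004712) without Inha-/- array 1. The Vcan probe sets 1421694_a_at and 1433044_at gave -1.60 (limma adjusted p = 0.01596) and -2.47 (0.01334). Without wild-type array 3 after hCG, the call of 1421694_a_at was lost (-1.42, limma adjusted p = 0.06695) and the Vcan difference on 1433044_at was -1.81 (0.008859), with a wild-type response of 2.50, against 3.17 with all arrays. With the arrays scaled to the same quantiles, the Vcan difference on 1421694_a_at was -0.90 (limma adjusted p = 0.1663), on 1427256_at -0.94 (0.04334) and on 1433044_at -1.66 (0.01495). This scaling used the centred values and gives every array the same spread. Before it, the SD over probe sets was 0.60, 0.52 and 0.73 on the wild-type and 0.42, 0.45 and 0.38 on the Inha-/- arrays after hCG. It therefore cannot separate array scaling from a wider response. With the repeated array name number as a random block, Vcan stayed called on 1427256_at (limma adjusted p = 0.006549) and not on 1421694_a_at (0.05882) or 1433044_at (0.09388). The Vcan probe set of largest SD gave -1.65, not called (limma adjusted p = 0.09425), with -1.03 (limma adjusted p = 0.2159) without Inha-/- array 1 and -2.15 (limma adjusted p = 0.04061) without Inha-/- array 3. In wild-type cells hCG raised it 9.83-fold (log2 3.30, limma adjusted p = 0.005373). In Inha-/- cells the Vcan difference was 1.80, not called (limma adjusted p = 0.2816), and 2.41 (limma adjusted p = 0.03843) without Inha-/- array 1 after hCG. No Vcan probe set was called in the test of the difference between responses. The nearest was 1427256_at at -1.19 (limma adjusted p = 0.08363). The 8 probe sets did not all measure alike: 5 followed 1447887_x_at at r = 0.57 to 0.97 over the 12 arrays, and 2 did so at -0.31 and -0.26. 1433043_at lay near 0 on all arrays except wild-type arrays 2 and 3 after hCG (1.94 and 2.26).

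Cd44, the hyaluronan receptor, rose with hCG in wild-type cells on 2 of its 4 probe sets and was not called between genotypes. On the probe set of largest SD (1423760_at) it had 0.22, 1.63 and 1.42 on the Inha-/- arrays after hCG and 1.20, 1.91 and 2.54 on the wild-type arrays after hCG. After PMSG it had -1.82, -0.90 and -0.28 on the Inha-/- arrays and -1.99, -1.48 and -0.22 on the wild-type arrays. Arrays after hCG lay above arrays after PMSG in each genotype, and the genotypes overlapped after each treatment. In Inha-/- cells the Cd44 difference with hCG was 2.09, not called (limma adjusted p = 0.2429), and 2.52 without Inha-/- array 1 after hCG, not called (0.1427). In wild-type cells hCG raised Cd44 8.66-fold (log2 3.11, limma adjusted p = 0.0111). The responses of Cd44 differed by -1.02 (95% confidence interval -2.92 to 0.87, limma adjusted p = 0.8451). A second Cd44 probe set (1434376_at) gave 1.28 in Inha-/- cells, not called (limma adjusted p = 0.2813), and 2.35 in wild-type cells (limma adjusted p = 0.005252). Another Cd44 probe set (1452483_a_at) gave 1.96 (limma adjusted p = 0.323) and 2.10 (0.0667), neither called. It was called in Inha-/- cells without array 1 after hCG (2.73, limma adjusted p = 0.0242).

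**Figure D3:**
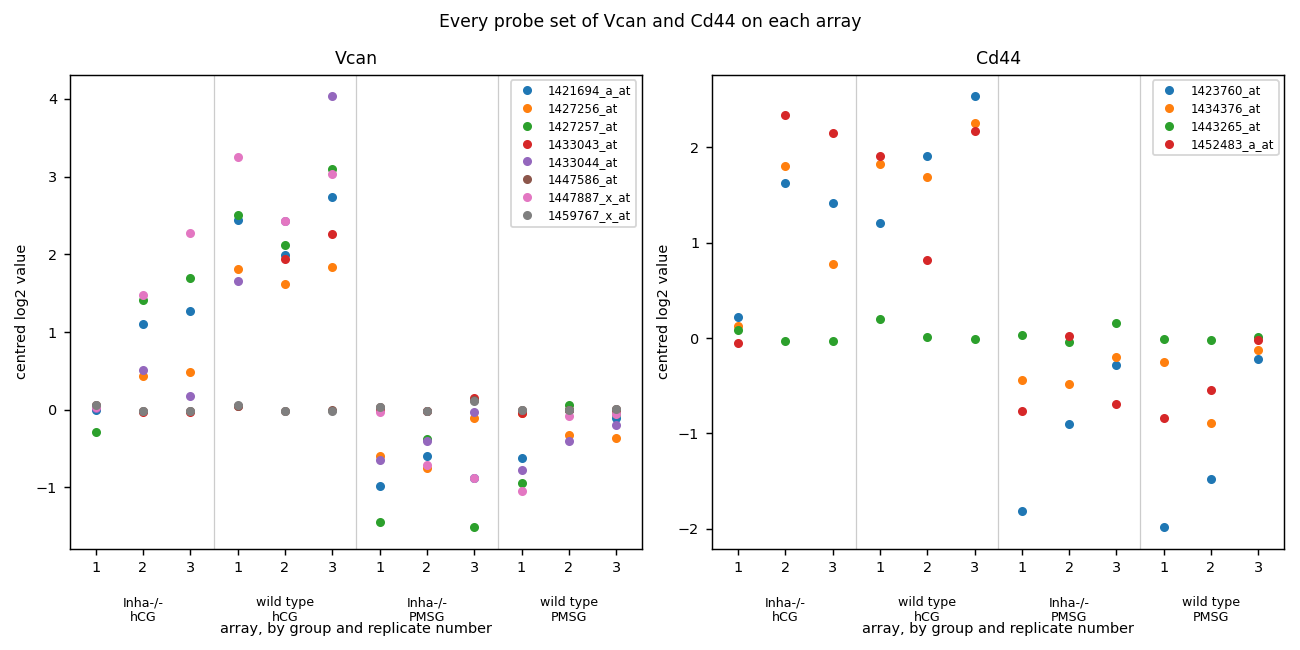
Centred log2 value of the 8 Vcan and 4 Cd44 probe sets (colours) on each of the 12 arrays, by group and replicate number. Inha-/- array 1 after hCG lies near 0 at every probe set of both genes (-0.29 to 0.22), below the other Inha-/- arrays after hCG at those that respond.

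Lyve1, a hyaluronan receptor, rose with hCG in wild-type cells and was far lower in Inha-/- than in wild-type cells after hCG. On the probe set of largest SD (1429379_at) it had -1.78, -0.01 and 0.01 on the Inha-/- arrays after hCG and 4.97, 4.78 and 5.89 on the wild-type arrays after hCG. After PMSG it had -0.38, -1.45 and -0.66 on the Inha-/- arrays and 0.25, -1.08 and 2.02 on the wild-type arrays. The wild-type arrays after hCG stood above all others, and wild-type array 3 was the highest of its group both after hCG and after PMSG. After hCG, Lyve1 was 56.0-fold lower in Inha-/- than in wild-type cells (log2 -5.81 ± 0.77 SE, n = 3 each, limma adjusted p = 0.001871). Without Inha-/- array 1 after hCG the Lyve1 difference was -5.21 (limma adjusted p = 0.00629). hCG raised Lyve1 28.3-fold in wild-type cells (log2 4.82, limma adjusted p = 0.005071). The Lyve1 response was 4.08 without wild-type array 2 after PMSG (limma adjusted p = 0.01614) and 5.63 without wild-type array 3 after PMSG (0.002448). With the centred values of the arrays scaled to the same quantiles the wild-type response of this probe set was 3.31, no longer called (limma adjusted p = 0.07388). In Inha-/- cells the hCG difference of Lyve1 was 0.24 (95% confidence interval -1.50 to 1.98, limma adjusted p = 0.8991). The responses differed by -4.58 ± 1.09 (SE), not called on this probe set (limma adjusted p = 0.1211). It was called when only the upper 60% of probe sets by SD were tested (limma adjusted p = 0.0399) or 1 probe set per gene among these (0.04283).

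The second Lyve1 probe set (1453128_at) followed the first over the 12 arrays (r = 0.975). It had -0.26, 0.02 and -0.22 on the Inha-/- arrays after hCG and 5.00, 4.77 and 6.03 on the wild-type arrays after hCG. It was lower in Inha-/- cells after hCG by 5.42 ± 0.50 in size (log2 -5.42, SE, n = 3 each, limma adjusted p = 0.0003244). On this Lyve1 probe set the responses differed by -4.58 ± 0.70 (SE; limma adjusted p = 0.02404). Without wild-type array 3 after PMSG the responses of this probe set differed by -5.17 (limma adjusted p = 0.005665), and its wild-type response was 5.39, against 4.80 with all arrays. The call was lost in 7 of the 12 fits that left out 1 array, at -4.23 to -4.66 with adjusted p of 0.05235 to 0.06904 by limma. These were the fits without any of the 3 Inha-/- arrays after hCG, without Inha-/- array 2 or 3 after PMSG, and without wild-type array 1 or 2 after PMSG. It was also lost with the centred values scaled to the same quantiles, which gives every array the same spread (-2.99, limma adjusted p = 0.2169). None of 3 lymphatic endothelial markers (Flt4, Pdpn and Prox1) was called in a comparison, and their array medians were -0.25 to 0.13 on the Inha-/- arrays after hCG, -0.17 to 0.48 on the wild-type arrays after hCG, -0.001 to 0.48 on the Inha-/- arrays after PMSG and -0.08 to 0.41 on the wild-type arrays after PMSG. None of 7 leukocyte markers or 6 endothelial markers was called either. The endothelial medians were -0.29 to 0.62 on the Inha-/- arrays and -0.09 to 0.54 on the wild-type arrays after hCG. After PMSG they were -0.05 to 0.19 on the Inha-/- arrays and -0.955 to -0.008 on the wild-type arrays. The median hCG response of the 6 was 1.03 in wild-type cells, with 0.004 over all genes. It was -0.06 in Inha-/- cells, with -0.04 over all. The part of these cells in the Lyve1 difference was not tested. The leukocyte medians were -0.003 to 0.70 on the Inha-/- arrays and 0.045 to 0.39 on the wild-type arrays after hCG, and -0.23 to 0.04 on the Inha-/- arrays and -0.04 to -0.03 on the wild-type arrays after PMSG. In RNA of many cells, fewer cells of a type and less RNA per cell cannot be told apart.

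Hyal2, a hyaluronidase, was higher in Inha-/- than in wild-type cells after hCG and was not called for hCG. It had 0.66, 0.93 and 0.60 on the Inha-/- arrays after hCG and -0.35, -0.39 and -0.29 on the wild-type arrays after hCG. After PMSG it had 0.09, 0.41 and 0.91 on the Inha-/- arrays and -0.09, -0.18 and -0.17 on the wild-type arrays. All 6 Inha-/- arrays lay above all 6 wild-type arrays. After hCG, Hyal2 was 2.10-fold higher in Inha-/- cells (log2 1.07 ± 0.18 SE, n = 3 each, limma adjusted p = 0.004991), and after PMSG the difference was 0.62, not called (limma adjusted p = 0.1299), although it was called without Inha-/- array 1 after PMSG (0.81, limma adjusted p = 0.02898). The hCG difference of Hyal2 was 0.26 in Inha-/- cells (limma adjusted p = 0.8325) and -0.19 in wild-type cells (limma adjusted p = 0.7574).

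**Figure D4:**
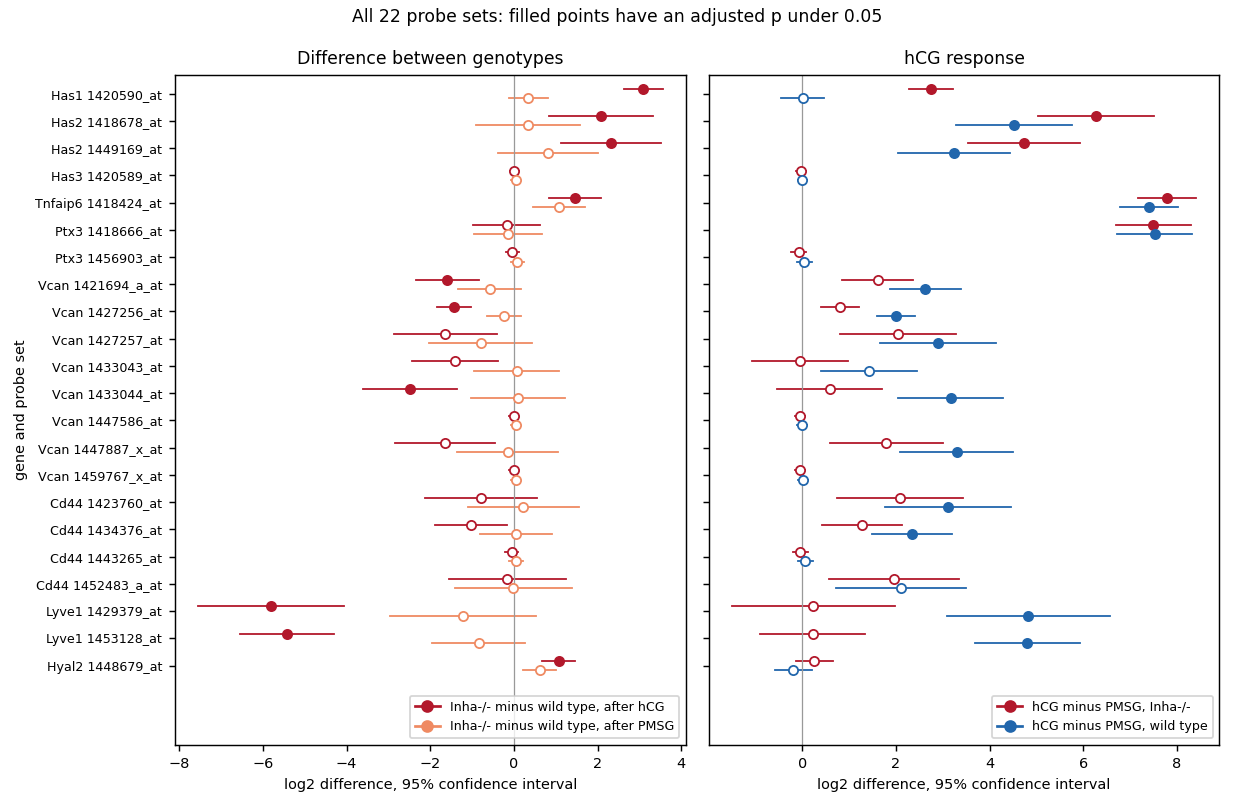
Log2 differences of all 22 probe sets with 95% confidence intervals, between genotypes (left, Inha-/- minus wild type after hCG and after PMSG) and between treatments (right, hCG minus PMSG in Inha-/- and in wild type). Filled points have an adjusted p under 0.05: 10 probe sets between genotypes after hCG and 0 after PMSG, and 5 responses in Inha-/- and 13 in wild type.

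Markers of other cells moved with genotype beside these results. After hCG 5 of 7 oocyte markers were higher in Inha-/- cells (Zp1, Zp2, Zp3, Oosp1 and Gdf9), Zp3 by 6.61 on the log2 scale (limma adjusted p = 0.002143), and after PMSG none was called. By the probe set of largest SD, 7.41% of all genes were called higher after hCG and 1.5% after PMSG. The median of the 7 was 0.61 to 2.90 on the Inha-/- arrays and -1.97 to -0.61 on the wild-type arrays after hCG. After PMSG the oocyte median was 0.80 to 2.34 on the Inha-/- arrays and -1.82 to -0.80 on the wild-type arrays. Of 7 theca and stroma markers, 4 were higher in Inha-/- cells after hCG (Myh11, Col1a1, Acta2 and Gli2) and 3 after PMSG (Myh11, Acta2 and Gli2), against the same shares of all genes. Cyp17a1, the steroid enzyme of theca cells, had differences of the opposite sign, -1.36 after hCG (limma adjusted p = 0.3151) and -2.94 after PMSG (0.06152), neither called. The median of these markers was 0.58 to 2.37 on the Inha-/- arrays and -1.12 to -0.52 on the wild-type arrays after hCG. After PMSG the theca and stroma median was 0.57 to 1.66 on the Inha-/- arrays and -0.71 to -0.42 on the wild-type arrays. Centred values do not show which markers were at or near 0. The part of these cells in the members' differences was not tested. Of the 5 granulosa markers, Inhba was higher in Inha-/- cells after hCG (1.72, limma adjusted p = 0.02991), against 7.41% of all genes. Fshr (-1.91, limma adjusted p = 0.005439) and Nr5a2 (-1.57, limma adjusted p = 0.0245) were lowered by hCG in wild-type cells, against 6.57% of all genes. Among 4 cumulus markers none was called between genotypes, and 1 was lowered by hCG in wild-type cells.

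The array names also hold a serial number, which differs on every array and is not the repeated number used as a block. It divides the arrays into 7 with low and 5 with high numbers, and both kinds are found in each group after hCG. After hCG the difference between genotypes was 2.79 among the low-numbered arrays and 3.24 among the high-numbered ones for Has1. It was 2.82 and 1.72 for Has2, 1.54 and 1.43 for Tnfaip6, 1.01 and 1.11 for Hyal2 and -6.75 and -5.34 for Lyve1, low-numbered arrays first. The Vcan difference on 1427256_at was -1.77 among low-numbered and -1.26 among high-numbered arrays. Signs were the same in both, with 1 array per genotype among the low-numbered and 2 among the high-numbered. None was called within either set by limma, with the exception of that Vcan probe set among the low-numbered arrays (adjusted p = 0.04125). Of the wild-type arrays after PMSG none had a high number, so the wild-type response could be had among low-numbered arrays only. Among these, where 1 array per genotype was after hCG, the Has1 response was 2.52 in Inha-/- cells, not called (limma adjusted p = 0.1197), and the Lyve1 response on 1429379_at was 4.58 in wild-type cells, not called (0.1867). The responses differed there by 2.37 for Has1 (limma adjusted p = 0.2019) and by -4.18 for Lyve1 on 1453128_at (0.3806), neither called. In high-numbered arrays, with 1 Inha-/- array after PMSG, the Has1 response in Inha-/- cells was 2.98.

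The enzymes that make the precursors of hyaluronan rose with hCG at 2 of the 10 genes measured, in both genotypes: Ugdh, which makes UDP-glucuronic acid, and Gfpt2, which starts the path to N-acetylglucosamine. By the probe set of largest SD, 1.26% of all genes were called higher with hCG in Inha-/- cells and 6.07% in wild-type cells, and 0.137% and 6.57% lower. Ugdh had 0.38, 0.85 and 0.65 on the Inha-/- arrays after hCG and 1.44, 0.996 and 1.61 on the wild-type arrays after hCG. After PMSG, Ugdh had -0.38, -0.83 and -1.10 on the Inha-/- arrays and -0.69, -0.64 and -0.50 on the wild-type arrays. The Ugdh response was 1.40 in Inha-/- cells (limma adjusted p = 0.0139) and 1.96 in wild-type cells (0.0005699). The Gfpt2 response was 1.27 in Inha-/- cells (limma adjusted p = 0.00215) and 1.47 in wild-type cells (0.0002781). The median response of the 10 genes was 0.26 in Inha-/- cells and 0.30 in wild-type cells, with -0.04 and 0.004 over all genes. None of the 10 was called between genotypes after hCG, where 7.41% of all genes were higher and 5.16% lower, and 1 was lower in Inha-/- cells after PMSG (Renbp, -0.85, limma adjusted p = 0.01758), against 1.46% of all.

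Of 8 further turnover genes measured, Cemip, a protein needed for hyaluronan breakdown in fibroblasts, was lower in Inha-/- cells after both treatments. Cemip had -1.95, -1.76 and -1.29 on the Inha-/- arrays after hCG and 2.81, 2.59 and 4.60 on the wild-type arrays after hCG. After PMSG, Cemip had -2.05, -2.22 and -1.72 on the Inha-/- arrays and 1.29, 2.56 and 3.11 on the wild-type arrays. All 6 Inha-/- arrays lay below all 6 wild-type arrays. Cemip was 31.9-fold lower in Inha-/- cells after hCG (log2 -4.99, limma adjusted p = 0.0008838) and 19.9-fold lower after PMSG (log2 -4.31, limma adjusted p = 0.00695). The other 2 Cemip probe sets gave -0.22 and -0.02 after hCG and -0.06 and 0.12 after PMSG, and neither was called. Hexa and Gusb, lysosomal enzymes that remove end sugars, were higher in Inha-/- cells after hCG, by 0.86 (limma adjusted p = 0.002578) and 0.65 (0.04316). Over all genes 7.41% were higher and 5.16% lower in Inha-/- cells after hCG, and 1.46% were lower after PMSG. Hexa fell with hCG in wild-type cells (-0.97, limma adjusted p = 0.001461), where 6.57% of all genes were called lower. Its responses differed by 0.96 (limma adjusted p = 0.04613), in a test that called 0.192% of all genes larger and 0.803% smaller in Inha-/- cells. The median difference of the 8 after hCG was 0.004, against 0.0006 over all genes.

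Among 20 other hyaluronan-binding proteins and receptors, 1 was higher and 1 lower in Inha-/- cells after each treatment. Over all genes 7.41% were higher and 5.16% lower after hCG, and 1.5% were higher and 1.46% lower after PMSG. Bcan (brevican), a relative of versican, was higher by 4.65 after hCG (limma adjusted p = 0.0002954) and by 4.02 after PMSG (limma adjusted p = 0.002263), and its second probe set gave 3.89 and 3.14, both called. Tlr2 was lower after hCG (-2.18, limma adjusted p = 0.003931) and Itih2, a heavy chain of inter-alpha-inhibitor, was lower after PMSG (-3.60, limma adjusted p = 0.03892). Itih2 lay between -0.35 and -0.30 on all Inha-/- arrays, and had 0.71, 2.63 and 0.30 on the wild-type arrays after hCG and 4.79, 1.85 and 3.20 on the wild-type arrays after PMSG. The median difference of the 20 was 0.002 after hCG and 0.06 after PMSG, with 0.0006 and 0.04 over all genes.

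Of the 6 proteases known to cut versican, 3 rose with hCG in both genotypes. Among all genes, hCG raised 1.26% in Inha-/- cells and 6.07% in wild-type cells, by the probe set of largest SD. Adamts9 rose by 3.52 in Inha-/- cells and 5.32 in wild-type cells, Adamts4 by 3.11 and 3.66, and Adamts1, which cleaves versican in the ovulating follicle, by 1.75 and 2.34, with Inha-/- first. The largest limma adjusted p of these responses was 0.008543, for Adamts1 in Inha-/- cells. After hCG, Adamts1 had 0.49, 0.41 and -0.13 on the Inha-/- arrays and 2.15, 2.01 and 2.63 on the wild-type arrays. After PMSG, Adamts1 had -1.18, -1.94 and -1.37 on the Inha-/- arrays and 0.06, -0.06 and -0.24 on the wild-type arrays. It was lower in Inha-/- cells after hCG (-2.0, limma adjusted p = 0.001125) and after PMSG (-1.42, limma adjusted p = 0.01994). Adamts9 was lower after hCG (-3.09, limma adjusted p = 0.003052). Of all genes, 5.16% were lower in Inha-/- cells after hCG and 1.46% after PMSG. None of the 6 was called in the test of the difference between responses.

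A list of 8 measured genes held inducers of cumulus expansion and, beside them, Pgr. Of these, hCG raised Ptgs2, Ereg, Btc and Pgr in both genotypes and Egfr in wild-type cells. With hCG, 1.26% of all genes were called higher in Inha-/- cells and 6.07% in wild-type cells. Ptgs2, which makes prostaglandins, had 7.14, 6.58 and 6.81 on the Inha-/- arrays after hCG and 4.89, 3.98 and 3.76 on the wild-type arrays after hCG. After PMSG, Ptgs2 had -3.93, -4.11 and -3.78 on the Inha-/- arrays and -3.76, -3.81 and -3.97 on the wild-type arrays. The responses of Ptgs2 differed by 2.73 ± 0.37 (SE; limma adjusted p = 0.01401), larger in Inha-/- cells, where 0.192% of all genes were called larger. Btc rose by 8.21 in Inha-/- cells and 8.82 in wild-type cells, Ereg by 9.54 and 8.12, and Pgr by 7.37 and 7.92, and the largest limma adjusted p of these was 6.257e-06, for Btc in Inha-/- cells. Pgr, the progesterone receptor, was lower in Inha-/- cells after hCG (-0.73, limma adjusted p = 0.007762), Gdf9, an oocyte factor that induces Has2, was higher (3.36, limma adjusted p = 0.01548), and Egfr was higher after PMSG (1.91, limma adjusted p = 0.007294). Of the 8, 2 were called higher and 1 lower after hCG, against 7.41% and 5.16% of all genes. After PMSG 1 was higher, against 1.5% of all.

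**Figure D5:**
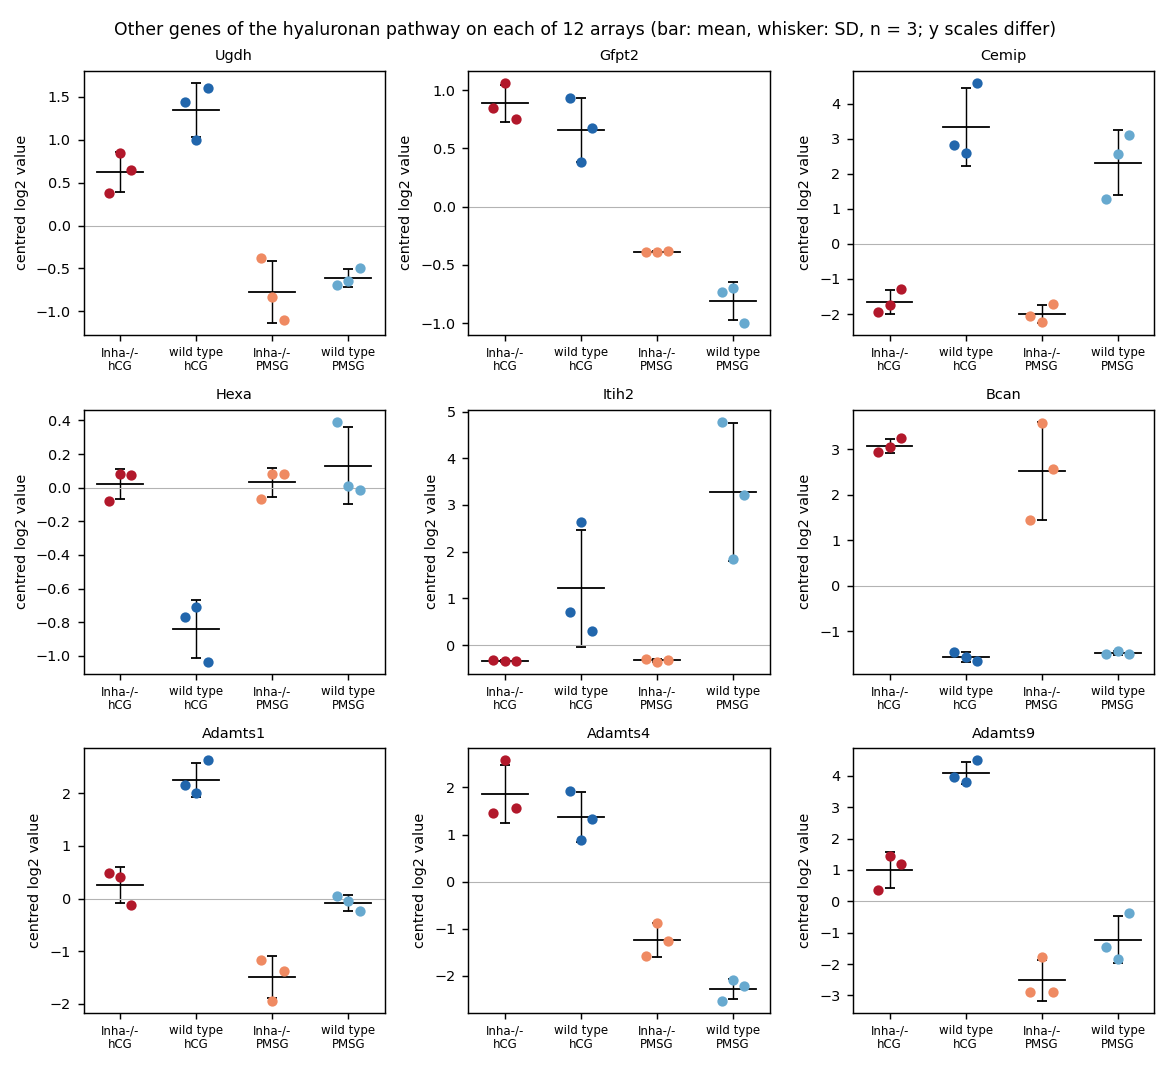
Centred log2 value of 9 other genes of the pathway on each array (points), with the mean (bar) and SD (whisker, n = 3) of each group. Cemip and Itih2 are lower on all 6 Inha-/- arrays than on any wild-type array, Bcan is higher on all 6, and Ugdh, Gfpt2 and Adamts4 are higher after hCG in both genotypes.

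For each member with a call, the 3 genes whose values over the 12 arrays correlated best with its own are given as a description, since all values come from the same 12 arrays and share their group differences. For Has1 they were Npr3 (r = 0.989), Slc2a3 (0.979) and Kcnma1 (0.970). For Has2 they were F3 (0.989), Cbarp (0.984) and Srxn1 (0.984). Tnfaip6 had Ereg (0.989), Ptgs2 (0.989) and Crem (0.986), and Ptx3 had Chst15 (0.996), Btc (0.995) and Pgr (0.992). Vcan had Lepr (0.983), Derl1 (0.979) and Tpm3 (0.967), and Cd44 had Plpp3 (0.969), Cd151 (0.954) and Wnt4 (0.953). Lyve1 had Epdr1 (0.971), Akr1c18 (0.969) and Cttn (0.969), and Hyal2 had Sys1 (0.969), Tpst1 (0.966) and Col1a1 (0.965). Col1a1 is one of the stroma markers above. Ereg and Ptgs2, named for Tnfaip6, and Btc, named for Ptx3, are among the inducers above. Pgr, also named for Ptx3, is listed with them.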

How the data were processed

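The authors deposited 1 table of log2 values for 12 Affymetrix arrays of granulosa cell RNA, normalised with GCRMA according to the submitters' processing notes. The GCRMA version is not given in the sources used here. In the deposited log2 values, each probe set has a median of 0 across the arrays (no absolute median above 5e-07), so the table was centred by probe set, which no label records. The widest probe set spans 13.3 units, more than the 11.1 that a 16-bit scan allows in natural logarithms. Probe sets were named from the platform annotation: 34945 name 1 gene, 932 several and 9160 none, and 64 controls were left out. The table held 0 columns of other samples.

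Samples were grouped by their labels. A group-means model was fitted to all 45037 probe sets with limma 3.58.1 in R 4.3.3, without a filter, with Benjamini-Hochberg adjustment within each of 5 contrasts: Inha-/- against wild type after hCG and after PMSG, hCG against PMSG in each genotype, and the difference between responses. The analysis was tested on simulated data. Members, lists, motifs and alternatives were chosen with earlier results of these data known. The named probe set of a gene has the largest SD over the 12 arrays, which favours responding probe sets, so the members' other probe sets are given too. Genes of the wider lists and markers are named where called, with exceptions for context. The 3 nearest genes are those of highest correlation with a member that has a call. Alternatives covered the filter, 1 probe set per gene, array scaling, weights, robust variances, blocks, the serial number in the array names and leaving out each array.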

Additional observations from a re-analysis of the deposited data

Results flagged for a closer look

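Among the members, 2 probe sets had an hCG response that differed between genotypes in the test of that difference. The response of Has1 was larger in Inha-/- cells by 2.74 on the log2 scale (2.75 in Inha-/- cells, 0.01 in wild-type cells, limma adjusted p = 0.003817). The response of Lyve1 on 1453128_at was smaller in Inha-/- cells, with a difference of -4.58 (0.22 in Inha-/- cells, 4.80 in wild-type cells, limma adjusted p = 0.02404).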

How the results depend on the processing

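Over the alternatives run, none of the 361 values of called results by named probe set changed sign, and 44 of 637 values of results that were not called did. Between genotypes after PMSG the number of the 22 probe sets called, 0 by limma, was 1 with a filter on the upper 60% by SD, with 1 probe set per gene, with quantile scaling and with the repeated array name number as a random block, and 0 to 1 without 1 array. The 1 was Tnfaip6, or Hyal2 without Inha-/- array 1 after PMSG. Between genotypes after hCG the count of 10 became 13 of 17 with the filter by SD, 6 of 8 with 1 probe set per gene, 5 with the random block, 1 among low-numbered and 0 among high-numbered arrays, and 7 to 11 without 1 array. For the response in Inha-/- cells the count of 5 lay at 5 to 9 without 1 array, the 9 being without Inha-/- array 1 after hCG. Among high-numbered arrays this response rests on 1 array after PMSG, so no count is given for it. For the response in wild-type cells 13 became 15 with the filter by SD and with array weights, 6 of 8 with 1 probe set per gene, 7 among low-numbered arrays and 13 to 14 without 1 array. For the difference between responses 2 became 1 with quantile scaling, 0 among low-numbered arrays and 1 to 3 without 1 array. Causes were not tested. Fewer probe sets or arrays enter the fits of 1 probe set per gene and of part of the arrays. Deviations of same-numbered arrays correlated at -0.14 to 0.25, with 6 of 18 pairs over 0.1, so the numbers were not taken to pair the samples, although 10 of 18 comparisons were highest with their own number. The same-numbered PMSG arrays that also share an array name number correlated at 0.19 and 0.25, and the consensus correlation within an array name number was 0.62. With the replicate number as a block the counts were 10 between genotypes after hCG, 0 after PMSG, 6 for the response in Inha-/- cells, 13 in wild-type cells and 2 for the difference between responses. The 1 call that the block changed among the 22 was Cd44 on 1423760_at for the response in Inha-/- cells (2.09, limma adjusted p = 0.008754). Array weights were estimated on the upper 60% by SD. Quantile scaling was run on the centred values and gives every array the same spread. Signal over background cannot be read from centred values.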
